A study of Arabidopsis thaliana with 9 samples.

Results

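Seedlings that overexpress AtSPP were set against seedlings in which AtSPP is knocked down by RNAi: 3 arrays of AtSPP-overexpressed lines against 3 arrays of AtSPP knockdown lines, 6 of the 9 Affymetrix ATH1 arrays of the study. The other 3 arrays, of the parental strain Col-0, take no part in the difference itself but help to estimate the spread. A probe set, the group of short probes that ATH1 carries for a transcript, was described where the platform annotation paired it with 1 gene, which held for 13513 of the 22746 probe sets left after the AFFX controls were taken out. The overexpressed lines carry full-length AtSPP behind the CaMV 35S promoter, which is active in most tissues, and ahead of the Nos-T terminator; the labels name the binary vector as pZH2B for replicate 1, pZH3B for replicate 2 and pZH4B for replicate 3, whereas the study's methods name pZH2B alone. The knockdown lines carry a piece of AtSPP in a vector that expresses it in the sense and antisense direction, a 600 bp piece around Asp198 in replicate 1 and a 400 bp piece with Asp198 and Asp239 in replicates 2 and 3. Both kinds of line are homozygous transgenic plants in the Col-0 background. All plants were whole seedlings grown for 7 days on MS medium at reduced strength with 0.8% agar, and each array holds RNA pooled from 20 plants. Per the labels 3 lines of each kind were grown, but which line, or which growth, a replicate number stands for is not stated. Knockdown replicate 1 carries another fragment than replicates 2 and 3 and so is another line, a difference that the knockdown spread includes. Beyond this, the spread that p-values measure here is that between pools and may be partly technical.

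Signal peptide peptidase is an aspartic protease of the ER membrane. It cuts, within the membrane, signal peptides that signal peptidase has already removed from secreted proteins, and some other short membrane proteins. In A. thaliana its complete loss is lethal through the pollen. The comparison of the 2 kinds of line asks which transcripts differ between plants with raised and with lowered AtSPP.

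Levels are DFW signals as deposited, taken to be on a log2 scale, and a difference is the AtSPP-overexpressed mean minus the knockdown mean in the same units. Where Col-0 is not named, rose, fell, higher and lower compare the AtSPP-overexpressed with the knockdown lines. DFW pulls arrays together wherever they differ little, so a difference is not a log2 fold change and can be small and still exceed the spread. The median signal was close to 6.30 on each array. The median SD of a probe set was 4.29e-06 among the AtSPP-overexpressed arrays, 3.57e-06 among the knockdown arrays and 4.03e-06 among the Col-0 arrays.

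AtSPP (AT2G03120) itself followed the labels. Its signal was 8.19, 8.23 and 8.16 on the AtSPP-overexpressed arrays, against 7.92, 7.94 and 7.92 on the knockdown arrays. The groups did not overlap, and the gap between the nearest arrays of both groups was 0.221. The knockdown arrays with the 400 bp piece had 7.94 and 7.92 and the one with the 600 bp piece had 7.92, a spread far smaller than the distance to the overexpressed arrays. The difference was 0.265 (standard error 0.017, limma adjusted p = 0.00183), the 3rd largest in size of the 22746 probe sets and the largest among those paired with 1 gene. An exact permutation test of the 3 against 3 arrays gave p = 0.1 (two-sided), the smallest that this design allows. With any array left out, with the 6 arrays alone and under each other alternative the limma call held, with adjusted p up to 0.0225. Against Col-0, at 7.97 on average, AtSPP-overexpressed lines were higher by 0.217 (limma adjusted p = 0.014) and the difference in the knockdown lines was -0.0479 (limma adjusted p = 0.125), so most of the distance between the 2 kinds of line lay on the overexpressed side. Where the probes lie in the gene is not known here, and the signal may include RNA of the transgenes. Neither the 5 homologs of AtSPP nor ACT2 and ACT7 were analysed here, as none has a probe set with 1 listed gene.

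Among the 8 loci on either side of AtSPP in the RefSeq gene order, 9 probe sets paired with 1 gene were measured. EXPA15 (AT2G03090), an expansin gene 4 loci away, was the 1 neighbour called, at 7.65658, 7.65664 and 7.65662 on the AtSPP-overexpressed arrays, against 7.65644, 7.65645 and 7.65643 on the knockdown arrays. Of all probe sets paired with 1 gene, 3.51% were called. The EXPA15 call ended without any 1 of the 6 arrays compared or Col-0 replicate 1, and after quantile normalization (adjusted p = 0.557). An effect of its place near AtSPP was not tested. The loci next to AtSPP, AT2G03110 and AT2G03130, differed by -1.92e-06 and 8.36e-07 (limma adjusted p = 0.854 and 0.721).

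Between the AtSPP-overexpressed and the knockdown lines, 986 of 22746 probe sets (4.33%) passed limma at an adjusted p under 0.05, the threshold for a call here. Of these, 515 (2.26%) rose and 471 (2.07%) fell, and 4441 had an unadjusted p under 0.05. Among probe sets paired with 1 gene, 474 of 13513 (3.51%) were called, 263 higher and 211 lower. In each of the 986 the 3 AtSPP-overexpressed arrays lay on one side of the 3 knockdown arrays, which held for 25.4% of all probe sets. The difference was small in most calls, with a median size of 1.67e-04, and exceeded 0.01 in 29 of them. Those 29 were mostly lower in the AtSPP-overexpressed lines, 6 being higher and 23 lower. Of the 100 largest differences over all probe sets, 43 were called, 7 higher and 36 lower. The 5 called probe sets above 0.1 in size were AtSPP, which was higher, and 4 that were lower and are not paired with a gene.

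The number of calls depended on the arrays used. With the 6 arrays alone, without Col-0, 204 probe sets were higher and 224 lower, and 358 of the 986 remained called in the same direction. With 1 of the 9 arrays left out, 168 to 458 were higher and 175 to 465 lower, fewest without knockdown replicate 3. Quantile normalization gave 1963 higher and 416 lower, and centring each array on its median gave 21862 higher and 293 lower, because that centring moved the median of all differences to 3.94e-04, against 4.89e-07 as deposited. A fall of a smaller size than this turned positive under that centring, and the genes concerned are named below. Of the 60 called genes given a role below, besides AtSPP, 27 kept call and direction after quantile normalization, 5 took the opposite sign and 10 had a difference of 0. After centring on array medians 45 kept call and direction and 12 took the opposite sign. That centring raises every difference, so the 32 genes that were higher as deposited could not lose their direction under it. Their share of the 45 is therefore no sign of a stable call. Rank products on the 6 arrays called 381 higher (1.68%) and 432 lower (1.9%), of which 385 shared call and direction with limma.

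**Figure D1:**
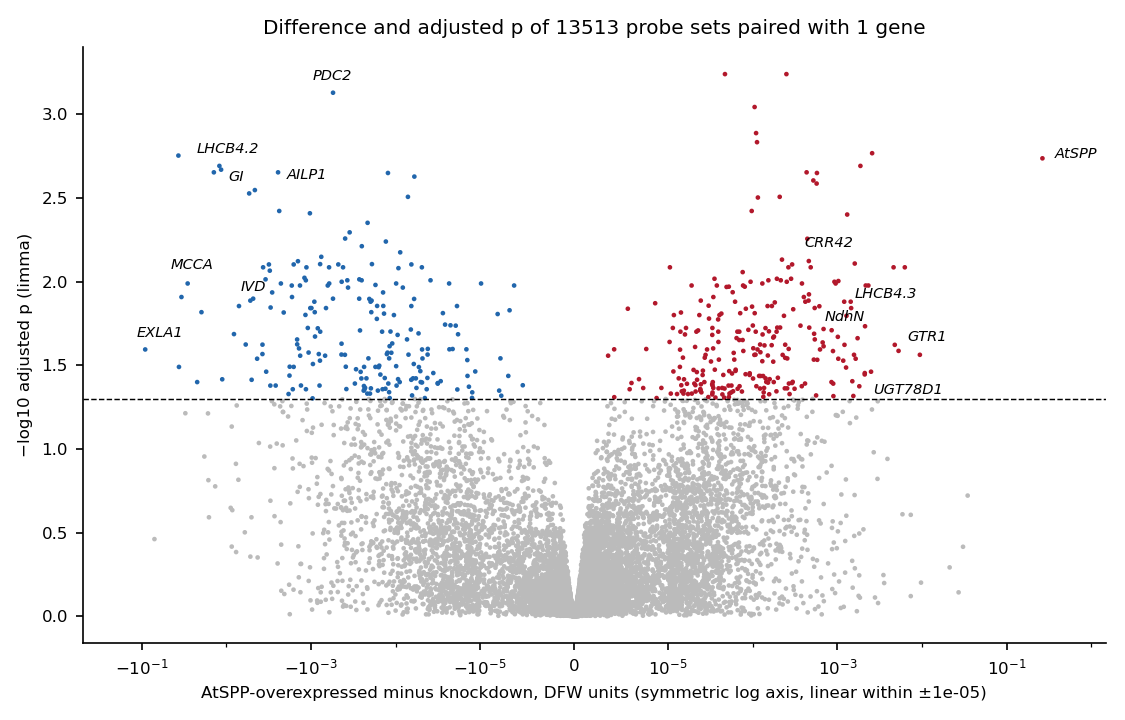
Difference between AtSPP-overexpressed and knockdown means (x axis, DFW units, symmetric log axis) against −log10 of the limma adjusted p (y axis) for the 13513 probe sets paired with 1 gene, with the dashed line at an adjusted p of 0.05. Red points are the 263 called higher and blue points the 211 called lower in the AtSPP-overexpressed lines, and AtSPP stands alone at the right, at 0.265.

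Leucine can be broken down for respiratory fuel when sugar runs short. Transcripts of all 3 genes of this pathway that could be measured were lower as deposited in the AtSPP-overexpressed lines. MCCA, the biotin-bearing subunit of methylcrotonyl-CoA carboxylase in leucine breakdown, had 6.927, 6.936 and 6.933 on the AtSPP-overexpressed arrays, against 6.96, 6.959 and 6.963 on the knockdown arrays. It fell by 0.0286 (standard error 0.00336, limma adjusted p = 0.0102), the largest called difference of a gene with a symbol after AtSPP and EXLA1. MCCB, the other subunit of that enzyme, had 7.62197, 7.62214 and 7.62222 against 7.62268, 7.62272 and 7.62276, with a difference of -6.10e-04 (limma adjusted p = 0.0082) that was 4.82e-04 after quantile normalization and lost its call after centring on array medians (adjusted p = 0.0596). IVD, the isovaleryl-CoA dehydrogenase one step earlier, had 6.9131, 6.9144 and 6.9131 against 6.9166 on each knockdown array, a difference of -0.00306 (limma adjusted p = 0.00859). The knockdown arrays lay close together in all 3 genes, and no array of one group reached the other. The list holds 8 genes, of which 3 were measured and 3 called lower, with a median difference of -0.00306, against 4.43e-07 over all 13355 genes, of which 1.97% were called higher and 1.57% lower. The calls of MCCA, IVD and MCCB held with the 6 arrays alone (limma adjusted p up to 0.0453) and with each array left out (limma adjusted p up to 0.0436).

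Other genes for enzymes of amino acid, purine and pyruvate metabolism were also lower as deposited; they were put together after their values were seen, so the grouping has no test. ETFQO, which passes electrons from IVD and similar dehydrogenases to the respiratory chain, fell by 7.82e-04 (limma adjusted p = 0.0296). AT4G33150, listed in RefSeq as LKR/SDH, the enzyme that starts lysine breakdown, had a difference of -2.35e-04 (limma adjusted p = 0.0323), which turned positive after centring on array medians. ALDH7B4, a stress-inducible aldehyde dehydrogenase, fell by 8.07e-04 as deposited (limma adjusted p = 0.0271) and differed by -1.47e-04 after quantile normalization (adjusted p = 0.829). Of 8 measured aldehyde dehydrogenase genes, looked at after their values were seen, it was the 1 called lower, and ALDH2C4 (1.29e-04, limma adjusted p = 0.0299) was the 1 called higher, a call that ended without any 1 array except AtSPP-overexpressed replicate 1 (adjusted p up to 0.0929). Over all genes 1.57% were called lower and 1.97% higher. PPDK, pyruvate orthophosphate dikinase, fell by 0.00113 (limma adjusted p = 0.00821). AAH, allantoate amidohydrolase of purine breakdown, had a difference of -1.40e-04 (limma adjusted p = 0.014), positive after centring on array medians and not called after quantile normalization (adjusted p = 0.306). The call of PPDK held with each array left out. That of AAH ended without AtSPP-overexpressed replicate 1 or knockdown replicate 2 (adjusted p up to 0.0525), and those of ETFQO, AT4G33150 and ALDH7B4 ended without AtSPP-overexpressed replicate 1 or any of the 3 knockdown replicates, as well as without AtSPP-overexpressed replicate 2 (ETFQO, ALDH7B4) or 3 (ETFQO, AT4G33150) and without Col-0 replicate 3 (ETFQO) or 1 (AT4G33150), with adjusted p up to 0.11.

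PDC2, a pyruvate decarboxylase of fermentation, had the smallest p among the genes with a symbol. Its signal was 8.31038, 8.31039 and 8.31045 on the AtSPP-overexpressed arrays, against 8.31092, 8.31099 and 8.31096 on the knockdown arrays. The difference of -5.48e-04 (standard error 2.76e-05, limma adjusted p = 7.42e-04) was many times the spread within each group, and was called with each array left out, but not after centring on array medians (-1.54e-04, adjusted p = 0.0808).

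Genes of the chloroplast were called in both directions. The 15 described here, 12 higher and 3 lower as deposited in the AtSPP-overexpressed lines, were chosen after their values were seen, so their split is not a result. The NDH complex carries electrons around photosystem I. Of 8 measured genes whose symbol marks them as NDH subunits or as factors needed for the complex, 3 were called higher and none lower, against 1.97% and 1.57% of all genes, and the median difference was 9.39e-05. This family was itself looked at after its values were seen, so its share of calls has no test. NdhN, a subunit, had 8.98459, 8.98485 and 8.98483 on the AtSPP-overexpressed arrays, against 8.98424, 8.98414 and 8.98428 on the knockdown arrays (difference 5.30e-04, limma adjusted p = 0.0205). CRR42, needed for the assembly or function of the complex, was higher by 4.59e-04 (limma adjusted p = 0.00753), and NdhL, another subunit, by 1.82e-04 (limma adjusted p = 0.0133). The other 5 had positive differences as deposited, of 5.01e-07 to 1.96e-04, that did not pass. A positive difference was the more frequent kind, in 7996 of all 13355 genes.

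Of 3 measured genes for the chaperonin 60 of chloroplasts, which folds Rubisco and other proteins, Cpn60beta2 (1.91e-04, limma adjusted p = 0.0199) and Cpn60beta4 (1.53e-04, limma adjusted p = 0.00981) were higher. This family too was looked at after its values were seen, and 1.97% of all genes were called higher. Cpn60beta4 has been tied to folding of an NDH subunit. LPA66, a pentatricopeptide repeat protein needed to edit a photosystem II transcript, rose by 1.30e-04 (limma adjusted p = 0.0102). FTSZ2-2, of the ring that divides chloroplasts, rose by 6.42e-05 (limma adjusted p = 0.0217). AT4G38100, listed in RefSeq as CURT1D of the thylakoid margins, rose by 0.0021 (limma adjusted p = 0.0358). THIC, which makes the pyrimidine part of thiamine, rose by 4.41e-04 (limma adjusted p = 0.00554), and LrgB, a transporter of the chloroplast envelope used in photorespiration, by 2.91e-04 (limma adjusted p = 0.00788). Centring on array medians raises every difference, so it could not turn these rises negative. After quantile normalization the difference was 0 in NdhN, Cpn60beta2, FTSZ2-2 and LrgB and stayed positive in the rest. After that normalization the calls of NdhL, LPA66 and THIC also ended (adjusted p up to 0.733). The calls of CRR42, Cpn60beta4, LPA66, THIC and LrgB held with each array left out. The call of NdhN ended without AtSPP-overexpressed replicate 3 or any knockdown replicate (adjusted p up to 0.0707), and that of NdhL without knockdown replicate 1 or 2 (up to 0.0508). Cpn60beta2 lost its call without AtSPP-overexpressed replicate 1 or 3 or knockdown replicate 2 or 3 (up to 0.0711), FTSZ2-2 without any AtSPP-overexpressed replicate or knockdown replicate 1 (up to 0.0693), and AT4G38100 without AtSPP-overexpressed replicate 1 or 3, any knockdown replicate or Col-0 replicate 3 (up to 0.113).

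The photosynthesis list was split. Of 45 genes 7 were measured, 2 called higher and 1 lower, against 1.97% and 1.57% of all genes, with a median difference of 5.46e-06. LHCB4.2 and LHCB4.3 encode versions of the minor antenna protein CP29 of photosystem II, and moved apart. LHCB4.2 had 10.283, 10.282 and 10.285 on the AtSPP-overexpressed arrays, against 10.294, 10.294 and 10.296 on the knockdown arrays, a difference of -0.0115 (standard error 7.91e-04, limma adjusted p = 0.00214). LHCB4.3 had 7.3846, 7.3853 and 7.3849 against 7.3836, 7.3838 and 7.3838, a difference of 0.0012 (limma adjusted p = 0.0132). The third copy, LHCB4.1, differed by -1.79e-05 (limma adjusted p = 0.107). The copies are close in sequence, and probes may pick up more than 1 of them. SBPASE, sedoheptulose-bisphosphatase of the Calvin cycle, was at 10.7 in all groups and higher by 7.72e-05 as deposited (limma adjusted p = 0.0259), with a difference of 0 after quantile normalization. TRXF2, a thioredoxin that activates Calvin cycle enzymes, differed by -2.69e-04 (limma adjusted p = 0.0126), and AT1G74470, geranylgeranyl reductase of chlorophyll synthesis, by -2.93e-04 (limma adjusted p = 0.0334); both turned positive after centring on array medians and were 0 after quantile normalization, and the call of AT1G74470 ended without any 1 of the 6 arrays or Col-0 replicate 2 (adjusted p up to 0.108). The call of LHCB4.2 held with the 6 arrays alone and with each array left out, whereas LHCB4.3 was not called without knockdown replicate 1 or 3 (adjusted p up to 0.0518) and SBPASE without AtSPP-overexpressed replicate 1 or 3 or any knockdown replicate (adjusted p up to 0.0874).

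**Figure D2:**
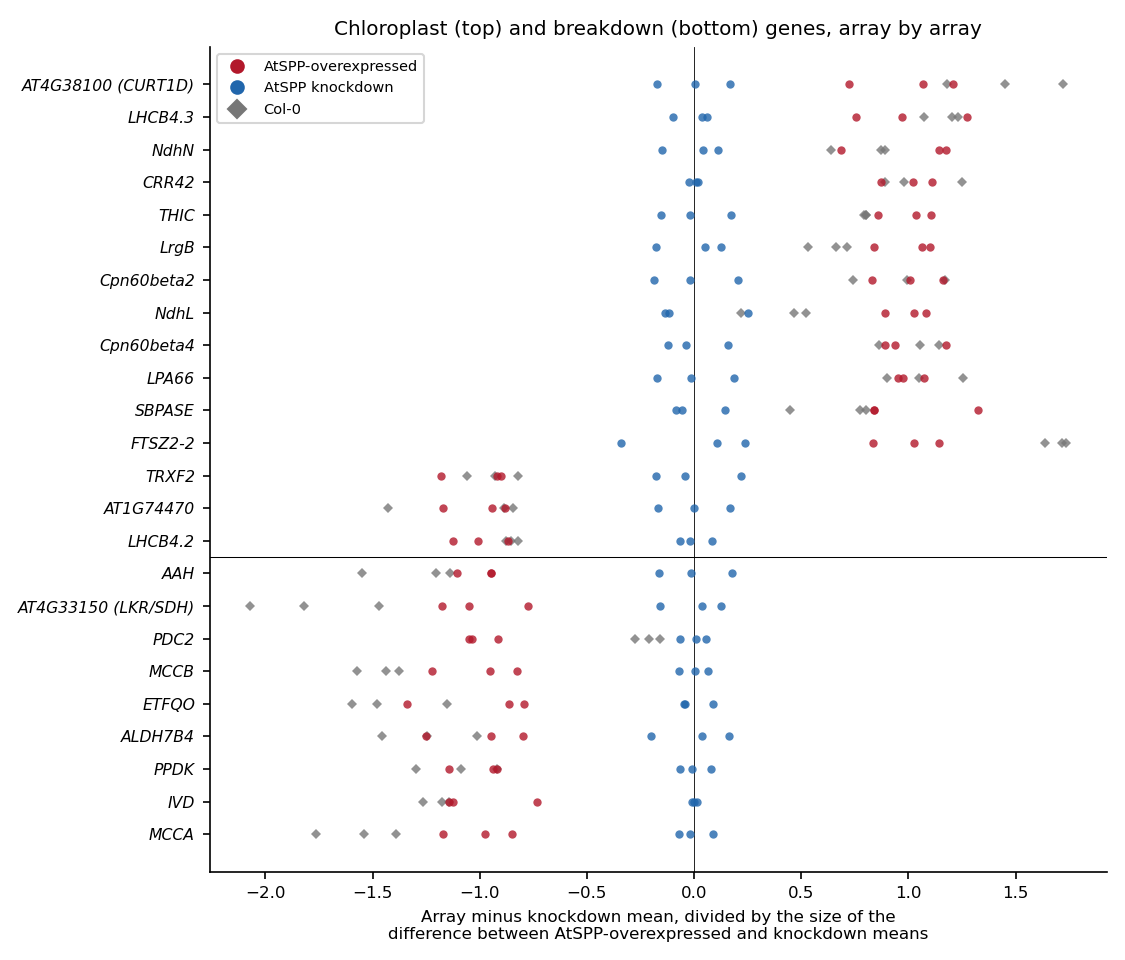
Each array's signal minus the knockdown mean, divided by the size of the difference between the AtSPP-overexpressed and knockdown means (x axis), for the 15 chloroplast genes above the line and the 9 genes of breakdown and fermentation below it, 1 gene per row. The AtSPP-overexpressed arrays (red) lay right of the knockdown arrays (blue) in 12 chloroplast genes and left of them in the other 3 and in all 9 below. The mean of the Col-0 arrays (grey) lay beyond the red mean or nearer to it than to the blue mean, except in PDC2 and NdhL. In LrgB, THIC and SBPASE every Col-0 array lay between the red and the blue arrays.

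Cell wall genes were called in both directions. Expansins loosen the wall, and xyloglucan endotransglucosylases (XTH) cut and rejoin its xyloglucan. Of 29 measured genes of these families, 3 were called higher and 3 lower, against 1.97% and 1.57% of all genes, with a median difference of 1.30e-06. EXLA1, an expansin-like gene, had 8.062, 8.067 and 8.028 on the AtSPP-overexpressed arrays, against 8.149, 8.13 and 8.151 on the knockdown arrays. It fell by 0.0909 (standard error 0.0148, limma adjusted p = 0.0254), the largest called fall of a named gene. EXLA2, of the same small family, fell by 0.0052 (limma adjusted p = 0.013), and XTH18 by 0.00178 (limma adjusted p = 0.0322). EXPA15 (1.74e-04, limma adjusted p = 0.0301), XTH32 (2.33e-04, limma adjusted p = 0.016) and EXLB1 (5.78e-05, limma adjusted p = 0.0116) were higher, EXLB1 with the opposite sign (-3.44e-05) after quantile normalization, which also ended the calls of EXPA15 and XTH32 (adjusted p = 0.557 in both). Outside these families, and chosen after their values were seen, GH9C2, an endoglucanase, was higher by 0.00126 (limma adjusted p = 0.0326), and AT5G06700, listed as TRICHOME BIREFRINGENCE and needed for cellulose in secondary walls, fell by 0.00314 (limma adjusted p = 0.00789). GH9C2 differed from Col-0 by -0.0014 for overexpression and -0.00266 for knockdown (limma adjusted p = 0.0657 and 0.00161). The calls of EXLA2, EXLB1 and AT5G06700 held with each array left out, but with the 6 arrays alone EXLA2 (adjusted p = 0.0546) and EXLB1 (adjusted p = 0.0509) were not called. EXLA1 was not called without AtSPP-overexpressed replicate 1 or 3, any knockdown replicate or Col-0 replicate 2 (adjusted p up to 0.0936). XTH18 was not called without AtSPP-overexpressed replicate 1 or 3, any knockdown replicate or Col-0 replicate 1 or 2, EXPA15 without any of the 6 arrays or Col-0 replicate 1, XTH32 without replicate 1 or 3 of either kind of line, and GH9C2 without AtSPP-overexpressed replicate 2 or 3, any knockdown replicate or Col-0 replicate 3 (adjusted p up to 0.112).

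Flavonoids, the sunscreen and pigment compounds of the seedling, had all 4 measured genes of the list on the positive side as deposited, with a median difference of 0.00104, and 2 were called higher, against 1.97% of all genes. Of all 13355 genes, 7996 were on the positive side. UGT78D1, which adds rhamnose to flavonols, had 7.0854, 7.0843 and 7.0857 on the AtSPP-overexpressed arrays, against 7.0834, 7.0828 and 7.0828 on the knockdown arrays (difference 0.0021, limma adjusted p = 0.0352). UF3GT, a glycosyltransferase of anthocyanins, differed by 2.55e-04 (limma adjusted p = 0.0288). CHIL, a chalcone isomerase-like protein that helps the pathway's first enzyme, was outside the list and higher by 8.86e-04 (limma adjusted p = 0.026). In UGT78D1, UF3GT and CHIL the Col-0 mean lay above both other means. UGT78D1 differed from Col-0 by -0.00221 for overexpression and -0.00432 for knockdown (limma adjusted p = 0.0722 and 0.0018). CHIL differed from Col-0 by -3.73e-04 and -0.00126 (limma adjusted p = 0.357 and 0.00381). After quantile normalization neither UF3GT (adjusted p = 0.175) nor CHIL (adjusted p = 0.265) was called. DFR, of the anthocyanin branch, differed by 9.73e-04 without passing (limma adjusted p = 0.0628). Of 48 UDP-glycosyltransferases, 2 were called, UGT78D1 and UGT71B1 (0.0025, limma adjusted p = 0.0345), both higher, against 1.97% of all genes called higher and 1.57% lower. None of UGT78D1, UF3GT, CHIL and UGT71B1 was called without AtSPP-overexpressed replicate 1 or 3 or any knockdown replicate (adjusted p up to 0.118); CHIL also needed AtSPP-overexpressed replicate 2, UF3GT Col-0 replicates 2 and 3, and UGT78D1 and UGT71B1 each Col-0 replicate.

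GTR1, which carries glucosinolates, the sulfur-rich defence compounds of the Brassicaceae, into the phloem, had 7.2203, 7.2186 and 7.2191 on the AtSPP-overexpressed arrays, against 7.2154, 7.214 and 7.2143 on the knockdown arrays. It rose by 0.00476 (limma adjusted p = 0.0238), the largest called rise after AtSPP among genes with a symbol. All 6 measured genes of the glucosinolate list had a positive difference as deposited, as had 7996 of all 13355 genes. The median of the 6 was 2.51e-04, and 3 of them had an unadjusted p under 0.05. GTR1 was the 1 called, against 1.97% of all genes called higher. GSTU20 was next (3.00e-04, limma adjusted p = 0.0508). APS3 and ATSPS4F were added after their values were seen. APS3, an ATP sulfurylase of sulfate assimilation, rose by 0.0015 (limma adjusted p = 0.0394), and ATSPS4F, a sucrose-phosphate synthase, by 0.00173 (limma adjusted p = 0.0218). GTR1, APS3 and ATSPS4F were not called without AtSPP-overexpressed replicate 1 or 3 or any knockdown replicate, APS3 and ATSPS4F also not without AtSPP-overexpressed replicate 2, and APS3 not without either Col-0 replicate 2 or Col-0 replicate 3, with adjusted p up to 0.126.

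**Figure D3:**
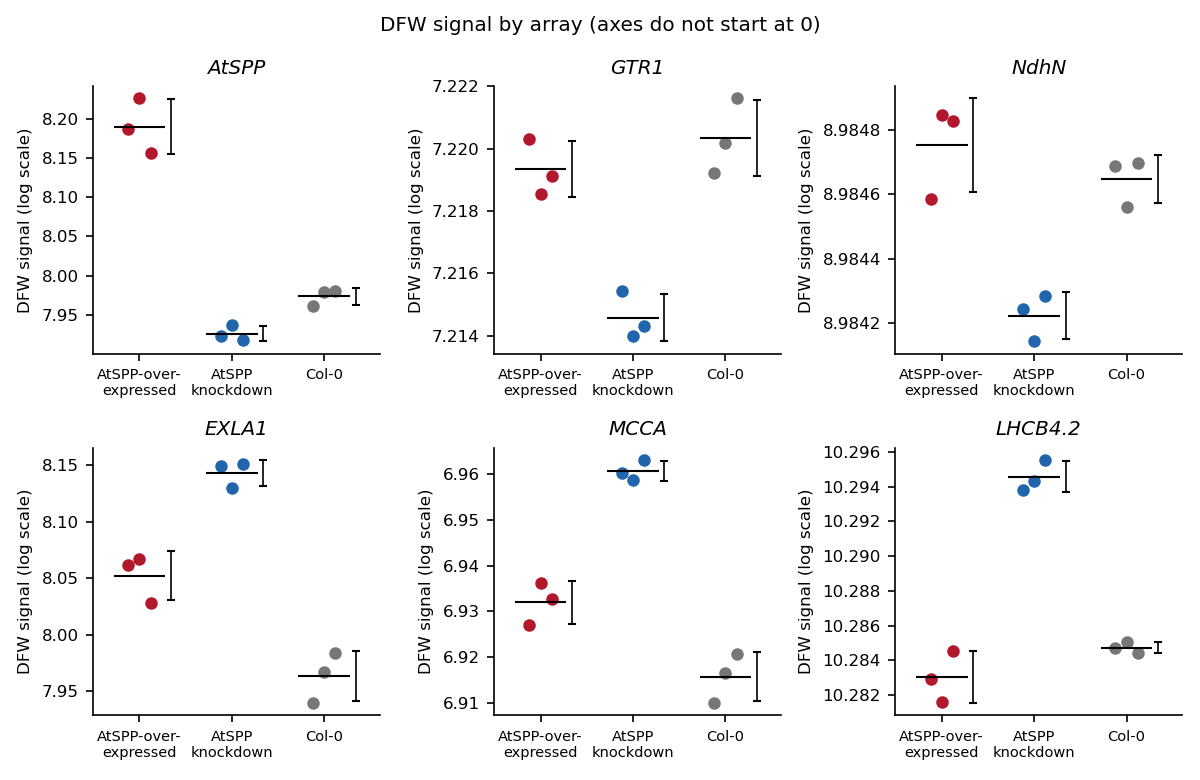
DFW signal (y axis, deposited log units, axes not starting at 0) on each array of 6 genes, with AtSPP-overexpressed arrays in red, knockdown arrays in blue and Col-0 arrays in grey; lines are means and bars SDs of 3 arrays. AtSPP, GTR1 and NdhN were higher and EXLA1, MCCA and LHCB4.2 lower on every AtSPP-overexpressed array than on any knockdown array, and in all but AtSPP the Col-0 mean lay nearer to the AtSPP-overexpressed mean than to the knockdown mean.

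Autophagy degrades cytoplasm in the vacuole, and ATG8 proteins coat its membranes. All 7 measured genes of the autophagy list had a negative difference as deposited, with a median of -4.95e-05 that is smaller than the shift from centring on array medians, and 1 was called, against 1.57% of all genes called lower. Of all 13355 genes, 5358 had a negative difference. Of the 7 measured ATG8 genes, looked at after their values were seen, 1 had a positive difference and the median was -1.07e-05. ATG8F had 9.17752, 9.17766 and 9.17747 on the AtSPP-overexpressed arrays, against 9.17805, 9.17826 and 9.17833 on the knockdown arrays; the difference of -6.63e-04 (limma adjusted p = 0.0144) was 0 after quantile normalization and missed the threshold without AtSPP-overexpressed replicate 1 or knockdown replicate 2 or 3 (adjusted p up to 0.0566). ATG8E had the larger difference, -0.0305, but also a wider spread, at 7.376, 7.385 and 7.369 against 7.405, 7.407 and 7.409 (limma adjusted p = 0.0611). Genes of membrane traffic, put together after their values were seen, were also lower as deposited and turned positive after centring on array medians: SEC15B of the exocyst (-2.59e-04, limma adjusted p = 0.0346), ELC of the ESCRT sorting machinery (-2.21e-04, limma adjusted p = 0.0378) and VPS60.1 of the same machinery (-1.09e-04, limma adjusted p = 0.0234). After quantile normalization none of the 3 was called (adjusted p up to 0.965). None of these 3 was called without AtSPP-overexpressed replicate 1 or 3 or any knockdown replicate, nor SEC15B without any Col-0 replicate, nor ELC without any 1 of the 9 arrays (adjusted p up to 0.114).

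Regulatory genes, gathered after their values were seen, were called in both directions. GI, which encodes GIGANTEA of the circadian clock and of photoperiodic flowering, fell most among the 8. It had 6.7437, 6.7423 and 6.7437 on the AtSPP-overexpressed arrays, against 6.7485, 6.7482 and 6.7491 on the knockdown arrays (difference -0.00537, standard error 4.20e-04, limma adjusted p = 0.00297), and held with the 6 arrays alone and with each array left out. bHLH121, an activator of iron uptake, was lower than in the knockdown lines by 0.00164 (limma adjusted p = 0.0439), and BRH1, a brassinosteroid-responsive RING protein, by 4.33e-04 as deposited (limma adjusted p = 0.01). Against Col-0, bHLH121 was called higher in both kinds of line, by 0.00289 for overexpression and 0.00453 for knockdown (limma adjusted p = 0.0314 and 0.00112). BRH1 lost its call after centring on array medians (adjusted p = 0.639) and after quantile normalization, where it differed by -4.24e-05. GH3.3, which joins auxin to amino acids, differed by -3.49e-04 (limma adjusted p = 0.00507), or by 4.48e-05 after centring on array medians. It was the 1 called of 7 measured auxin response genes, against 1.57% of all genes called lower. STOMAGEN, a peptide that promotes stomata (3.00e-04, limma adjusted p = 0.0146), CLE41, a peptide of the vascular cambium (3.79e-04, limma adjusted p = 0.0422), SMZ, a repressor of flowering (1.49e-04, limma adjusted p = 0.014), and AGO7, an Argonaute of small RNA pathways (1.33e-04, limma adjusted p = 0.0488), were higher as deposited. After quantile normalization the difference of SMZ was 0, and AGO7 and bHLH121 were not called (adjusted p = 0.366 and 0.0915). BRH1 and GH3.3 were called with each array left out. STOMAGEN was not called without replicate 1 of either kind of line, SMZ without AtSPP-overexpressed replicate 1 or knockdown replicate 2 or 3, bHLH121 without 7 of the arrays (all but AtSPP-overexpressed replicate 2 and Col-0 replicate 3), CLE41 without any but knockdown replicate 3, and AGO7 without any but Col-0 replicate 1 (adjusted p up to 0.148).

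Secreted proteins are the source of the signal peptides that AtSPP cuts. Of 29 measured serine carboxypeptidase-like genes, whose products enter the secretory pathway, 3 were called higher and none lower, against 1.97% and 1.57% of all genes, with a median difference of 7.20e-07; the family was looked at after its values were seen. The largest difference in the family by size was a fall, of -0.00303, which limma did not call. Rank products called 1 member higher and 1 lower. scpl35 had 8.44437, 8.44431 and 8.4445 on the AtSPP-overexpressed arrays, against 8.44324, 8.44358 and 8.44349 on the knockdown arrays (difference 9.52e-04, limma adjusted p = 0.0102), and was called with each array left out. SCPL49 (9.16e-05, limma adjusted p = 0.0361) and scpl20 (2.43e-05, limma adjusted p = 0.013) moved less, and after quantile normalization SCPL49 had a difference of 0 and scpl20 was not called (adjusted p = 0.366). With arrays left out, scpl20 was not called without knockdown replicate 1 (adjusted p = 0.0508), and SCPL49 without 7 of the arrays in turn (adjusted p up to 0.114), AtSPP-overexpressed replicate 2 and Col-0 replicate 2 being the exceptions. Of 20 measured beta-glucosidase genes, also looked at after their values were seen, 2 were called, against 1.97% of all genes called higher and 1.57% lower. BGLU47 was higher (1.01e-04, limma adjusted p = 0.025), though not after quantile normalization (adjusted p = 0.154) nor without AtSPP-overexpressed replicate 1 or 3 or knockdown replicate 1 or 3 (adjusted p up to 0.0761), and BGLU16 lower as deposited (-2.52e-04, limma adjusted p = 0.00981) but higher after quantile normalization (7.09e-04) and median centring (1.42e-04). Of 24 measured cytochrome P450 genes, 2 were called, both lower as deposited, against 1.57% of all genes. They were the neighbouring genes CYP71B22 and CYP71B23. CYP71B22 differed by -2.36e-04 (limma adjusted p = 0.042) and CYP71B23 by -4.89e-05 (limma adjusted p = 0.0082), both with the opposite sign after median centring, and CYP71B23 also after quantile normalization, where CYP71B22 was not called (adjusted p = 0.657). CYP71B22 was not called without AtSPP-overexpressed replicate 1 or 3, any knockdown replicate, or 1 of Col-0 replicates 2 and 3, with adjusted p up to 0.126.

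The 22 candidate substrates of AtSPP have 8 members with a probe set paired with 1 gene, and none was called in limma (1 at an unadjusted p under 0.05, 1 by rank products). Over all genes 1.97% were called higher and 1.57% lower, so a list of 8 need hold no call. AT4G33720, a root candidate, had 7.9989, 7.9974 and 7.9969 on the AtSPP-overexpressed arrays, against 7.9935, 7.9955 and 7.9953 on the knockdown arrays, a difference of 0.00297 (standard error 9.49e-04, limma adjusted p = 0.151). AT5G64100, the other measured root candidate, differed by 3.19e-05 (limma adjusted p = 0.932). The 6 measured pollen candidates, AT5G21100, BGLU41, AT4G32460, AT4G25900, AT5G11420 and AT3G26720, differed by -6.43e-05 to 2.87e-04, with limma adjusted p of 0.313 or more. The screen for root candidates started from the AtSPP-overexpressed and Col-0 arrays, so their direction is not independent evidence.

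No gene of the ER quality control lists was called, against 1.97% of all genes called higher and 1.57% lower. The 5 measured genes for ER chaperones and the unfolded protein response held 0 limma calls, 1 unadjusted p under 0.05 and 0 rank product calls. That 1 was ATERDJ3B, an ER co-chaperone (4.21e-05, limma adjusted p = 0.2). BZIP17, BZIP28 and BZIP60, membrane-bound or spliced sensors of ER stress, had adjusted p of 0.269, 0.871 and 0.925. The 5 measured genes of ER-associated degradation, which clears misfolded proteins, held 0 limma calls, 1 unadjusted p under 0.05 and 0 rank product calls. That 1 was DER2.1, a derlin (-4.18e-04, limma adjusted p = 0.232). The unmeasured members of these lists were not analysed here, and 5 genes do not stand for either list.

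In further lists no measured gene was called in limma: 13 glutathione transferases (2 at an unadjusted p under 0.05, 1 higher by rank products), 7 WRKY factors (1 and 0), 4 cold and drought genes (2 and 1 higher), 3 heat shock genes (1 and 1 higher), 2 defence genes (0 and 2 lower), 2 genes of low sugar (2 and 2 lower), 2 of iron (0 and 0) and 1 of sulfur deficiency (1 and 0). With 1.97% of all genes called higher and 1.57% lower, lists this short need hold no call. As markers of tissues that a whole seedling holds in varying amounts, the root hair genes EXPA7 (-2.43e-06, limma adjusted p = 0.972) and EXPA18 (6.08e-06, limma adjusted p = 0.866) and the dividing-cell gene AUR1 (6.21e-06, limma adjusted p = 0.432) were not called, and no seed gene was measured. The green tissue markers are the photosynthesis genes above, called in both directions. In whole seedlings, fewer cells of a type and less RNA per cell cannot be told apart.

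Most genes that differed between the kinds of line had Col-0 on the AtSPP-overexpressed side. The Col-0 mean lay beyond the AtSPP-overexpressed mean, as seen from the knockdown mean, in 56.9% of the 986 called probe sets, between the means but nearer to the AtSPP-overexpressed one in 34.6%, nearer to the knockdown one in 7.2% and beyond the knockdown mean in 1.32%. Over all 22746 probe sets these shares were 46.7%, 17.8%, 12.7% and 22.8%. Of the 986, 45 were called as well for the AtSPP-overexpressed lines against Col-0, a comparison with 0.545% of all probe sets called, and 854 for the knockdown lines against Col-0, with 13.5% called. The counts overlap in 32 probe sets, and 119 were called in neither. Both comparisons share the 3 Col-0 arrays and the estimate of spread. They also use again the arrays that chose the 986, so more calls than among all probe sets are built in. That choice bears on the place of Col-0 as well, so the shares over all probe sets are no test of it. Among the 60 called genes given a role in the text, besides AtSPP, 56 were called for the knockdown lines against Col-0 and 6 for the AtSPP-overexpressed lines. All 60 were taken from the calls between the kinds of line, so these counts too are partly built in. In the 9 genes of breakdown and fermentation, for example, 9 were called in the knockdown lines and 1, PDC2, in the AtSPP-overexpressed lines, and Col-0 lay beyond the AtSPP-overexpressed mean in 8.

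**Figure D4:**
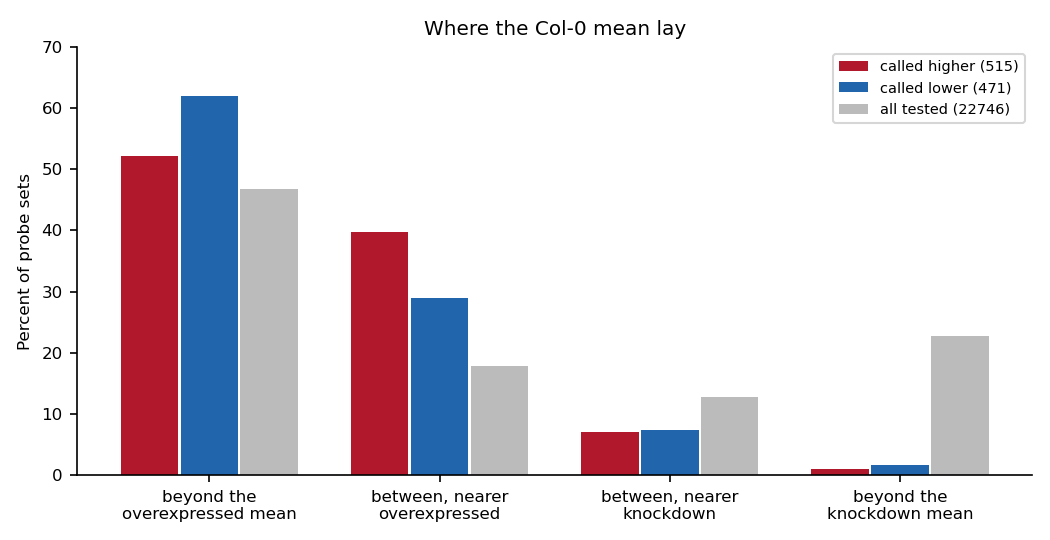
Percent of probe sets (y axis) by where the Col-0 mean lay on the line from the knockdown to the AtSPP-overexpressed mean (x axis), for the 515 called higher (red), the 471 called lower (blue) and all 22746 tested (grey). Col-0 lay beyond the knockdown mean in 0.971% of the higher and 1.7% of the lower calls, against 22.8% of all probe sets.

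GI was an exception. Its Col-0 arrays, at 6.7492, 6.7495 and 6.7489, lay beside the knockdown arrays, and its difference from Col-0 was -0.006 for overexpression (limma adjusted p = 0.0134) and -6.38e-04 for knockdown (limma adjusted p = 0.418). CYP71B23 was likewise called against Col-0 for overexpression (-3.69e-05, limma adjusted p = 0.048) and not for knockdown (1.19e-05, limma adjusted p = 0.208). In EXLA1 both means lay above Col-0, by 0.0891 for overexpression (limma adjusted p = 0.0706) and by 0.18 for knockdown (limma adjusted p = 0.00156). In ATG8F both were called above Col-0, by 6.33e-04 for overexpression and 0.0013 for knockdown (limma adjusted p = 0.048 and 0.00105).

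Arrays within a group were not equal in the calls. Among the 986 probe sets, the AtSPP-overexpressed array nearest to the knockdown arrays was replicate 2 in 457, replicate 3 in 277 and replicate 1 in 252. The knockdown array nearest to the AtSPP-overexpressed arrays was replicate 2 in 383, replicate 1, with the 600 bp fragment, in 356 and replicate 3 in 247. The gap between the nearest arrays was, in the median, 65.6% of the difference between the means.

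Of the 83 called genes followed through the alternatives, 17 were called in the same direction under every limma alternative that tested them: AtSPP, LHCB4.2, GI, IVD, MCCA, PPDK, CRR42, Cpn60beta4, scpl35, AT5G06700 and 7 genes known by their locus code alone. Those 7 were AT1G62510, AT5G35970 and AT2G30600, which were lower, and AT1G60590, AT1G78020, AT1G31690 and AT3G53190, which were higher. Centring on array medians is among the alternatives and raises every difference, so it checks the direction of the falls alone. AT1G62510 had 6.846, 6.852 and 6.848 on the AtSPP-overexpressed arrays, against 6.886, 6.882 and 6.888 on the knockdown arrays, a difference of -0.0368 (standard error 0.00232, limma adjusted p = 0.00176). AT2G30600 was called with both of its probe sets, at -0.014 (limma adjusted p = 0.00222) and -0.00287 (limma adjusted p = 0.0116), the 1 such gene among 147 with more than 1 probe set, 10 of which had a called one. In AT1G60590 the difference was 0.00625 (limma adjusted p = 0.0082). AT1G06000 had the largest called rise after AtSPP among probe sets paired with 1 gene, 0.00942 (limma adjusted p = 0.0274), but was not called under each alternative (adjusted p up to 0.0988).

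**Figure D5:**
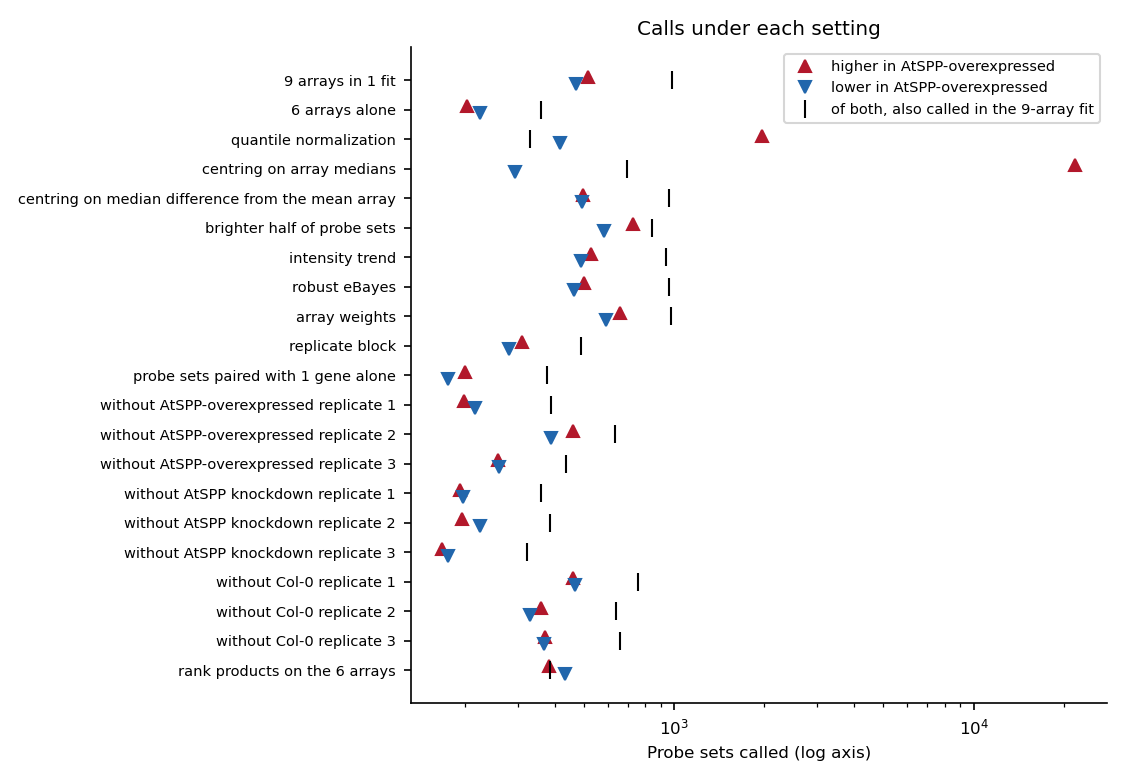
Number of probe sets called higher (red) and lower (blue) in the AtSPP-overexpressed lines (x axis, log scale) under each setting (y axis), and, as a black tick, how many of both were also called in the fit of 9 arrays. The counts stayed between 168 and 727 except the 1963 and 21862 higher under quantile normalization and median centring.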

How the data were processed

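RNA of whole 7-day seedlings was hybridized to 9 Affymetrix ATH1 arrays, 1 per pool of 20 plants. The authors ran DFW in R over all arrays, and the deposited values, 1 for each probe set, are taken as log2; the log base, software version and background correction are not stated in the sources at hand. DFW shrinks arrays towards each other, so spreads and differences are small. The values were used as deposited. Of 22810 rows, 64 AFFX controls were left out; of the other 22746, 503 had several genes and 8730 were not listed. Genes came from the platform annotation, and 13436 of 13513 probe sets paired with 1 gene matched RefSeq (TAIR10.1), which was used for names and gene order alone. Where a gene had more than 1 probe set, gene lists took the brightest.

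Groups came from the sample labels. Each difference was tested in limma 3.58.1 (R 4.3.3), with 9 arrays in 1 fit without covariates (6 residual degrees of freedom) and two-sided p-values adjusted by Benjamini-Hochberg over all 22746 probe sets. AtSPP also had an exact permutation test. Rank products were computed by a script after the published definition (9 array pairs, 100 permutations, percentage of false positives under 0.05). The steps were tested on simulated data. Precision is set by the number of arrays, and no scanner file was used.

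Named genes are AtSPP, the candidate substrates, the 12 largest differences and 5 smallest p in each direction among called probe sets paired with 1 gene whose groups do not overlap, and called list members or else the 2 with the smallest p; of these the text gives those with a role or a stable call. All other genes the text names were added after their values were seen. The comparison and all lists were chosen with earlier results of these data known. A list gene counts where RefSeq pairs its locus with the listed name. The alternatives were the 6 arrays alone, quantile normalization, 2 centrings, each array left out, the brighter probe sets, a fit of 1-gene probe sets by themselves, robust eBayes, a trend on intensity, a replicate block and array weights. Promoter motifs were not analysed here.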

Additional observations from a re-analysis of the deposited data

Results flagged for a closer look

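Of the 32 called probe sets that were also called against Col-0 for both kinds of line, 3 had the kinds of line on opposite sides of Col-0. They were picked because every comparison called them, so their p-values here are no separate evidence. PDC2 differed by -5.48e-04 between the AtSPP-overexpressed and the knockdown lines (limma adjusted p = 7.42e-04), and from Col-0 by -4.30e-04 for overexpression (limma adjusted p = 0.0134) and 1.18e-04 for knockdown (limma adjusted p = 0.0366). Centring on array medians ended its call between the kinds of line (adjusted p = 0.0808). SD1-29, an S-domain receptor kinase gene, differed by -7.14e-05 (limma adjusted p = 0.00311), and from Col-0 by -4.19e-05 for overexpression (limma adjusted p = 0.045) and 2.95e-05 for knockdown (limma adjusted p = 0.0201). Its difference between the kinds of line was called in the opposite direction after quantile normalization (3.05e-04, limma adjusted p = 6.23e-15). The same held after median centring (3.22e-04, limma adjusted p = 6.49e-04). A probe set that is not paired with a gene differed by -1.56e-04 (limma adjusted p = 5.74e-04), and from Col-0 by -7.16e-05 for overexpression (limma adjusted p = 0.0249) and 8.39e-05 for knockdown (limma adjusted p = 0.0018). Both comparisons with Col-0 share its 3 arrays. With 3 arrays per group, no array was tested as an outlier.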

How the results depend on the processing

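The 6 arrays alone called 204 probe sets higher and 224 lower than in knockdown lines, quantile normalization 1963 and 416, centring on array medians 21862 and 293, and a fit of the probe sets paired with 1 gene alone 200 and 175. The share of higher calls was 52.2% as deposited, 82.5% after quantile normalization and 98.7% after centring on array medians. With 1 array left out, 168 to 458 were higher and 175 to 465 lower. Same-numbered arrays of both kinds of line deviated from their group means with correlations of 0.22, -0.045 and -0.081, so the numbers were not taken as pairs; with a replicate block 310 were higher and 280 lower, and 487 of the 986 calls were among them. The remaining limma alternatives gave counts within 1.5 times those of the deposited values.

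After quantile normalization the difference was -3.44e-05 in EXLB1, -7.57e-05 in AT2G38970, 1.61e-05 in CYP71B23, 4.82e-04 in MCCB, 3.05e-04 in SD1-29 and 7.09e-04 in BGLU16, each with the opposite sign to the deposited values. Centring on array medians turned it positive in AT4G32460 (3.92e-04), EXPA7 (3.91e-04), AT3G50990 (3.91e-04), AT4G25900 (3.89e-04), AT5G11420 (3.86e-04), UBC32 (3.85e-04), CYP71B23 (3.45e-04), AT3G26720 (3.29e-04), SD1-29 (3.22e-04), VPS60.1 (2.84e-04), AAH (2.54e-04), ELC (1.73e-04), AT4G33150 (1.58e-04), CYP71B22 (1.57e-04), BGLU16 (1.42e-04), SEC15B (1.35e-04), TRXF2 (1.25e-04), AT1G74470 (1.00e-04) and GH3.3 (4.48e-05), all smaller in size as deposited than the shift of 3.94e-04 that this centring adds. The cause of the quantile reversals was not tested. Of the 60 called genes given a role, besides AtSPP, 22 kept their call with each array left out, 24 with the 6 arrays alone and 35 with the replicate block. With 3 pools per group, and a scale that shrinks small differences, the size of a difference depends on the scaling, also in genes that differ by more than the array-median shift, such as MCCB and ATG8F.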

Other observations

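The largest differences in size belonged to probe sets that are not paired with a gene. The largest had signals of 7.21, 7.37 and 7.3 on the AtSPP-overexpressed arrays, against 7.67, 7.77 and 7.74 on the knockdown arrays and 6.71, 6.92 and 7.09 on the Col-0 arrays, a difference of -0.433 that missed the threshold (limma adjusted p = 0.0598). The second had 7.93, 7.91 and 7.92, against 8.18, 8.17 and 8.22 on the knockdown arrays and 7.96, 7.98 and 7.96 on the Col-0 arrays, and fell by 0.273 (limma adjusted p = 5.74e-04). In it the knockdown arrays stood apart from both other groups.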
